A study of Mus musculus with 37 samples.

Results

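Uterine NK (uNK) cells are known for secreting factors that act on decidual vessels and on the growth of the placenta and fetus. The genes described here encode 9 of them, chosen by name out of 53700 genes counted: Spp1 (osteopontin), the VEGF family genes Vegfa, Vegfb, Vegfc and Pgf (placental growth factor), the heparin-binding factors Ptn (pleiotrophin) and Mdk (midkine), Adm (adrenomedullin, a vasodilator peptide) and Csf1 (macrophage colony-stimulating factor). The choice was made with earlier results of these data known. All 9 had a row in every file. Osteopontin is a secreted matrix protein that binds integrins and CD44, VEGF ligands act on receptor tyrosine kinases of blood and lymphatic endothelium, and CSF1 sustains macrophages.

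The study compared uNK cells by education, the process by which NK cells are tuned through inhibitory receptors for self MHC class I. Cells came from the pregnant uterus of C57BL6 mice on gestation day 9.5 to 10.5, and were sorted as live single CD45+ NKp46+ cells without lineage markers that include CD3, CD4 and CD8, and without high CD11b. From WT mice there were 9 libraries of cells with neither NKG2A nor Ly49C/I (uneducated), 9 libraries from the NKG2A+ gate and 6 from the Ly49C/I+ gate. Mice labelled NKG2A KO gave 8 uneducated and 5 Ly49C/I+ libraries. How the KO was made is not given in the labels. Both KO gates, uneducated and Ly49C/I+, also take in cells that would carry NKG2A in WT mice. KO and WT gates therefore differ in cell content as well as genotype. Cells positive for both receptors were not collected. The paper lists the antibody as NKG2AC/E, so the NKG2A gates may also depend on NKG2C and NKG2E. How many mice each library holds is not stated, so p-values measure the spread between these libraries, which may be partly technical.

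Each library held 13287163 to 18875033 reads counted on genes (median 17273311), and 13982 to 17859 genes had a count. Levels are given as CPM (reads per 1000000 reads of a library, with library sizes scaled by TMM) and, between genes, as CPM per kb of exon. Klrc1, which encodes NKG2A, was at 495 to 753 CPM in NKG2A+ libraries and at most 13.9 CPM in the other libraries. The KO libraries had 0.781 to 3.82 CPM of Klrc1, but both KO gates were NKG2A-negative, so this level checks the sort and not the genotype. Klra9, which encodes Ly49I, was at 452 CPM or more in the 11 Ly49C/I+ libraries and at most 124 CPM in the others. Klra3, which encodes Ly49C, ran the other way, at 54.9 ± 19.5 CPM in WT Ly49C/I+ (SD, n = 6) against 138 ± 50.7 in WT uneducated (n = 9) and 167 ± 34.1 CPM in NKG2A+ libraries (n = 9), and at 94.4 ± 11.2 (n = 5) against 147 ± 25.0 CPM (n = 8) in KO mice. Genes of the Ly49 family are near-identical copies, so the split of reads between them is uncertain. Ncr1 (NKp46) was at 463 to 1023 CPM in all 37. Of 10 NK cell markers, 5 were higher and 2 lower in NKG2A+ than in uneducated WT cells. Among all genes tested, 15.0% differed in either direction by the test given below. Markers of other cells were present unevenly. The 9 trophoblast markers summed to 59.8 CPM in WT uneducated library 5, to 31.2, 35.0 and 37.5 CPM in WT NKG2A+ libraries 1, 3 and 5, and to at most 20.1 CPM in the rest. These high sums rest on the keratin genes Krt8 and Krt18, which reached 34.4 and 25.5 CPM. Every other marker of that list reached at most 2.89 CPM, so the sums are no firm sign of trophoblast RNA. The 12 decidual stromal markers summed to 493, 286 and 891 CPM in WT NKG2A+ libraries 1, 3 and 4 and to at most 96.2 CPM in the rest. These high sums rest on 1 gene, Prl8a2, which reached 881 CPM, while every other stromal marker reached at most 14.3 CPM. In each group 4 or 5 of the 9 trophoblast markers and 1 to 5 of the 12 stromal markers had no read in any library. The 5 libraries with at least 30 CPM of the former or 200 CPM of the latter are left out below where a result could rest on them.

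The 9 genes spanned a wide range of levels, with osteopontin far above the rest. The median of Spp1 over the 37 libraries was 1930 CPM per kb, the 14th highest of 52147 genes with a symbol. Vegfa followed at 60.6 CPM per kb, Vegfc at 10.9 and Vegfb at 7.11 CPM per kb. The lowest Spp1 library (686 CPM per kb) was above the highest Vegfa library (91.0 CPM per kb), and the lowest Vegfa library (33.6 CPM per kb) was above the highest Vegfc library (20.0 CPM per kb). Vegfb (4.72 to 10.7 CPM per kb) overlapped with Vegfc. The medians of Mdk (1.60 CPM per kb) and Csf1 (1.04 CPM per kb) stood for uneven values, since Mdk ran from 0 to 79.9 CPM per kb and Csf1 from 0 to 13.2 CPM per kb. Ptn had reads in 20 libraries, Adm in 13 and Pgf in 12. The plot of length-scaled levels shows these steps.

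**Figure D1:**
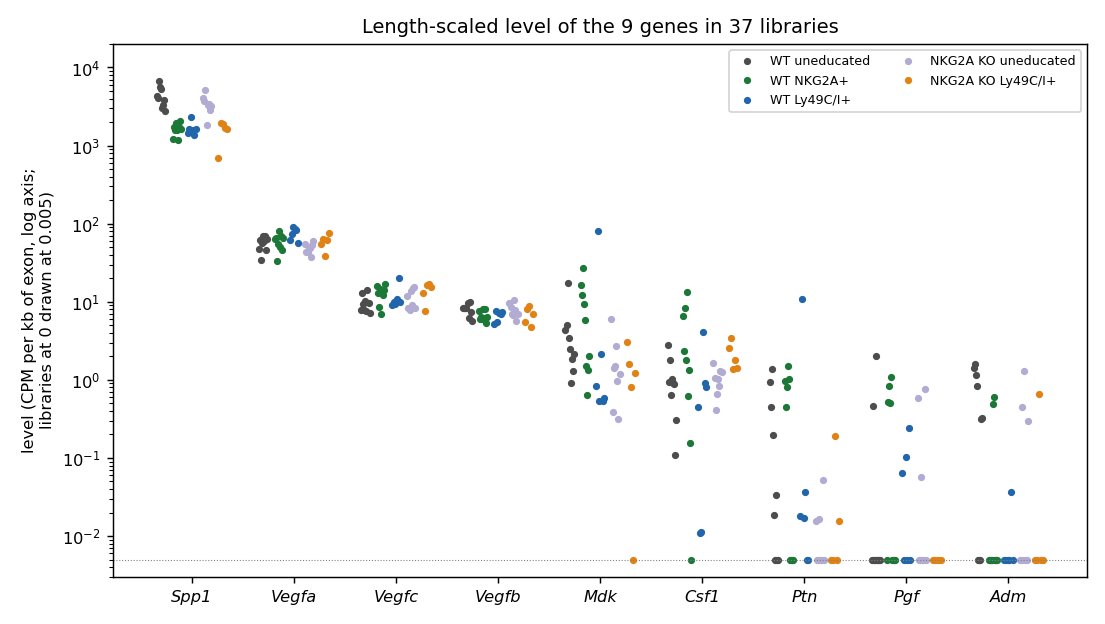
Level of each gene in every library, in CPM per kb of exon on a log axis, with 1 point per library coloured by group and libraries at 0 drawn at 0.005. Spp1 lies above all other genes in every library, and Ptn, Pgf and Adm have many libraries at 0.

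A gene was tested where 0.5 of the libraries of a comparison or more had 5 CPM of it, by edgeR's quasi-likelihood test with Benjamini-Hochberg adjustment over all genes tested and a threshold of 0.05. Spp1, Vegfa, Vegfb and Vegfc passed this filter in all 7 comparisons, and Csf1 in 5 of them. Mdk, Ptn, Pgf and Adm passed in none, so their values are descriptions, and their fits without a filter on low counts are named as such.

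Spp1 fell in both kinds of educated WT cells. In uneducated WT cells the lowest library had 4622 CPM, the median 6765 and the highest 10970, with a mean of 7149 ± 2106 (SD, n = 9). In NKG2A+ cells the lowest was 1915, the median 2703 and the highest 3378 CPM, with a mean of 2677 ± 477 (SD, n = 9). In Ly49C/I+ cells the lowest was 2282, the median 2648 and the highest 3799 CPM, with a mean of 2753 ± 540 (SD, n = 6). Every educated library was below every uneducated WT library.

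Spp1 was 2.66-fold lower in NKG2A+ than in uneducated cells (log2 fold change -1.41, SE 0.15, edgeR adjusted p = 2.58e-06). It was the 1 of 5 members tested that passed, where 15.0% of 9339 genes passed in either direction, and 0.835% of genes were lower without overlap of the groups. In Ly49C/I+ cells it was 2.57-fold lower (log2 fold change -1.36, SE 0.18, edgeR adjusted p = 5.53e-04), again as the 1 member of 4 tested that passed, where 9.20% of 9292 genes passed and 1.40% were lower without overlap. These comparisons share the uneducated libraries. In these bulk libraries, fewer cells with Spp1 and less Spp1 RNA per cell cannot be told apart.

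The NKG2A+ and Ly49C/I+ groups overlapped in Spp1. Their log2 difference was -0.05 (SE 0.12, edgeR adjusted p = 0.868), and 2 of the 9 NKG2A+ libraries lay below the lowest Ly49C/I+ library. Of the 4 members tested between these 2 educated populations 0 passed, where 2.73% of 9308 genes did. At an unadjusted p under 0.05 there was 1 (Vegfa), beside 18.4% of all genes, and the likelihood ratio test and DESeq2 called 0.

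Spp1 also fell with Ly49C/I in NKG2A KO mice. Uneducated KO libraries ran from 3061 CPM to 8600 (median 5542, mean 5703 ± 1586, SD, n = 8). The 5 KO Ly49C/I+ libraries, numbered 4 to 8, had 1131, 3181, 3126, 2765 and 2677 CPM (mean 2576 ± 837, SD, n = 5). They overlapped with the uneducated group through a single library, uneducated 4 at 3061 CPM, and 3 of the 5 lay below all uneducated KO libraries. The change was 2.21-fold lower (log2 fold change -1.14, SE 0.23, edgeR adjusted p = 0.00333). With Csf1, Spp1 was 1 of 2 members of 5 tested that passed, where 16.3% of 9299 genes did. Library 4 was the lowest in both KO populations, and without KO Ly49C/I+ library 4 the log2 fold change of Spp1 was -0.95.

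**Figure D2:**
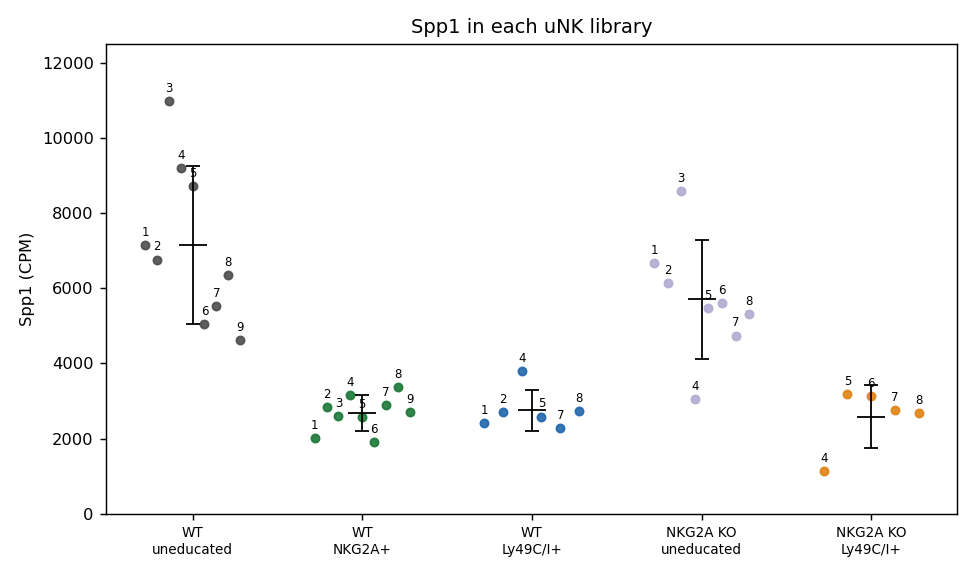
Spp1 in CPM (vertical axis) in each of the 37 libraries, with 1 point per library labelled by its number and the mean ± SD of each group in black. All 15 educated WT libraries lie below the lowest uneducated WT library at 4622 CPM, and the KO groups overlap through uneducated library 4.

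By group mean Spp1 ran from WT uneducated through KO uneducated, WT Ly49C/I+ and WT NKG2A+ to KO Ly49C/I+. The first neighbours in this order did not pass the test (KO minus WT uneducated, log2 -0.34, SE 0.18, unadjusted p = 0.0671, edgeR adjusted p = 0.800), and neither did KO against WT Ly49C/I+ (log2 -0.11, SE 0.21, edgeR adjusted p = 0.8997). The Ly49C/I+ effect on Spp1 differed between KO and WT mice by 0.24 on the log2 scale (SE 0.30, edgeR adjusted p = 0.9995). The fall of Spp1 passed the threshold in all 30 alternative analyses of NKG2A+ cells, all 25 of Ly49C/I+ cells and all 23 of KO cells. Without the 5 libraries with high trophoblast or stromal sums, the change in NKG2A+ cells was -1.32 on the log2 scale (SE 0.19, edgeR adjusted p = 5.75e-04).

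Macrophages are another known source of osteopontin. The 12 macrophage markers summed to 572 to 774 CPM in uneducated WT, 479 to 1128 in NKG2A+ and 622 to 1072 CPM in Ly49C/I+ libraries, so the groups overlapped. Ccr2 alone was at 429 to 862 CPM over the 37 libraries and made up a large part of these sums, so their overlap says little of macrophage content. Other markers of the list differed widely. Adgre1, which encodes F4/80, was at most 6.29 CPM in any library and Cd163 at most 2.88 CPM, while Lyz2 reached 292, Cd14 65.3, C1qb 44.9 and Cd68 43.6 CPM. Of this list 0 genes passed the test in either WT comparison (5 and 4 tested). Markers of 3 other lists moved with the groups: Epcam and Cdh1 of the epithelial list were lower in NKG2A+ cells (log2 -1.28, SE 0.17, adjusted p = 2.47e-05, and -0.71, SE 0.21, adjusted p = 0.0242), 4 of 6 tested genes of the T cell list were higher, and 2 of 5 of the red cell list were higher. In Ly49C/I+ cells Epcam was lower too (log2 -1.10, SE 0.17, adjusted p = 0.00109), and 2 of 5 tested T cell list genes were higher. Among all genes tested, 15.0% passed in NKG2A+ and 9.20% in Ly49C/I+ cells in either direction. Within the T cell list, Trbc1 was at 244 to 486 CPM over the 37 libraries, while Cd4 and Cd8a had 0 reads in 35 and 34 of them. The part of any of these lists in the Spp1 result was not tested.

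The Spp1 gene (ENSMUSG00000029304) lies at chr5:104435118-104441050 on the plus strand (GRCm38). Spp1 is shown with a RefSeq promoter window (GRCm38.p6, chr5:104434861-104435160, plus strand), because it is the member that changed in all 3 education comparisons. The window runs from 250 bases before the start site to 50 after it. Capitals mark a TATAAA at -211 to -206 from the start site and, at -128 to -123, the reverse complement of the RUNX core TGTGGT.
Spp1: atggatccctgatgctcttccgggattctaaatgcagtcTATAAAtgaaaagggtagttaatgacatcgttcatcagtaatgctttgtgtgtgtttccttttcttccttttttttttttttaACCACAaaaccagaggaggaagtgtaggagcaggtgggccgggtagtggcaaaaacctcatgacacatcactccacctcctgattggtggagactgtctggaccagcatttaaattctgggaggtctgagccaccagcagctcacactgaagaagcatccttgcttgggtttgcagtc
Both strands were searched. Of 32851 windows of this length, 13.6% held TATAAA and 16.8% held TGTGGT. The window holds neither ACGTG, the core of hypoxia response elements (19.6% of windows), nor the AP-1 motif TGANTCA (7.81%). The motifs do not overlap, and apart from ACGTG they were chosen after values had been seen. A second Spp1 window within the gene (chr5:104435942-104436241) is not shown and holds none of these motifs on either strand. Of the stretches of 50 bases of Spp1 exons, 11.6% are also in the overlapping gene model Gm42793, which lies on the same strand.

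The receptors of osteopontin on the uNK cells themselves did not move as 1 group. Of 8 listed receptor genes 6 were tested in NKG2A+ against uneducated cells. Cd44, the hyaluronan and osteopontin receptor, was higher at 142 ± 22.2 against 69.8 ± 20.0 CPM (SD, n = 9 and 9; log2 fold change 1.03, SE 0.15, edgeR adjusted p = 6.48e-05). The integrin genes Itgb3 and Itgav, which encode the 2 chains of a vitronectin and osteopontin receptor, were lower (log2 -0.87, SE 0.20, adjusted p = 0.00404, and -0.43, SE 0.13, adjusted p = 0.0239). The median of the 6 was -0.12 on the log2 scale, beside 0.01 over all genes tested. In Ly49C/I+ cells Itgb3 was lower (log2 -1.16, SE 0.23, adjusted p = 0.00595) and was the 1 of 6 past the threshold. In KO Ly49C/I+ cells Itgb3 was lower (log2 -1.06, SE 0.31, adjusted p = 0.0289) and Cd44 higher (0.45, SE 0.15, adjusted p = 0.0476).

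Among the genes whose levels ran most like Spp1 over the 37 libraries were Gzmf (Spearman rho 0.905), Adam8 (0.902), Epas1 (0.901) and Txndc17 (0.898), among 9286 genes. Gzmf encodes granzyme F, Adam8 a membrane metalloprotease, and Epas1 the hypoxia-inducible factor HIF-2α. The libraries of a group share their sort, so part of this likeness is the difference between groups. About the group means, rho was 0.789 for Gzmf, 0.720 for Adam8, 0.716 for Epas1 and 0.783 for Txndc17 (n = 37). These are descriptions, with no test.

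Adam8 and Epas1 were lower in the same 3 comparisons, which largely restates their likeness to Spp1, since it was computed over the same libraries. Epas1 was at 69.2 ± 41.8 CPM in uneducated WT (SD, n = 9), 13.4 ± 8.73 in NKG2A+ (n = 9) and 10.0 ± 7.49 CPM in Ly49C/I+ cells (n = 6). Its log2 fold change was -2.37 in NKG2A+ (SE 0.40, edgeR adjusted p = 2.88e-04), -2.78 in Ly49C/I+ (SE 0.55, adjusted p = 0.00552) and -3.00 in KO Ly49C/I+ cells (SE 0.52, adjusted p = 0.00137). Epas1 was at 48.3 ± 28.2 CPM in KO uneducated cells (n = 8) and at 6.00 ± 5.12 CPM in KO Ly49C/I+ cells (n = 5). Adam8 fell by 1.14 on the log2 scale in NKG2A+ (SE 0.14, adjusted p = 1.31e-05), by 0.87 in Ly49C/I+ (SE 0.15, adjusted p = 0.00247) and by 0.80 in KO Ly49C/I+ cells (SE 0.18, adjusted p = 0.00676).

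Hypoxia is a textbook inducer of Vegfa and Adm, so the HIF regulators and other hypoxia-induced genes were counted as listed. Of the 7 HIF regulators tested, Epas1 was the 1 that passed in NKG2A+ and in Ly49C/I+ cells, and Hif1a was also lower in KO Ly49C/I+ cells (log2 -0.41, SE 0.13, edgeR adjusted p = 0.0378). The list median was 0.32, 0.26 and 0.13 on the log2 scale in the 3 comparisons, above 0.01, 0.01 and 0.02 over all genes tested. Of the hypoxia-induced list, 3 of 14 genes were lower and 1 higher in NKG2A+, 3 of 13 lower in Ly49C/I+, and 4 of 14 lower and 1 higher in KO Ly49C/I+ cells, beside 15.0%, 9.20% and 16.3% of all genes tested that passed in either direction. The list medians were -0.17, -0.30 and -0.21. Ero1a, an oxidoreductase of disulphide formation, fell by 1.15, 1.43 and 1.06 on the log2 scale (SE 0.23, 0.28 and 0.23, adjusted p = 0.00185, 0.00529 and 0.00506). The glycolytic genes Ldha and Pgk1 fell in all 3, Ldha by 0.35, 0.51 and 0.80 (SE 0.11, 0.14 and 0.095, adjusted p = 0.0300, 0.0266 and 1.46e-04) and Pgk1 by 0.40, 0.58 and 0.74 (SE 0.12, 0.15 and 0.11, adjusted p = 0.0282, 0.0204 and 6.42e-04). The histone demethylase gene Kdm3a rose in NKG2A+ (log2 0.82, SE 0.15, adjusted p = 7.54e-04) and KO Ly49C/I+ cells (0.82, SE 0.18, adjusted p = 0.00576).

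**Figure D3:**
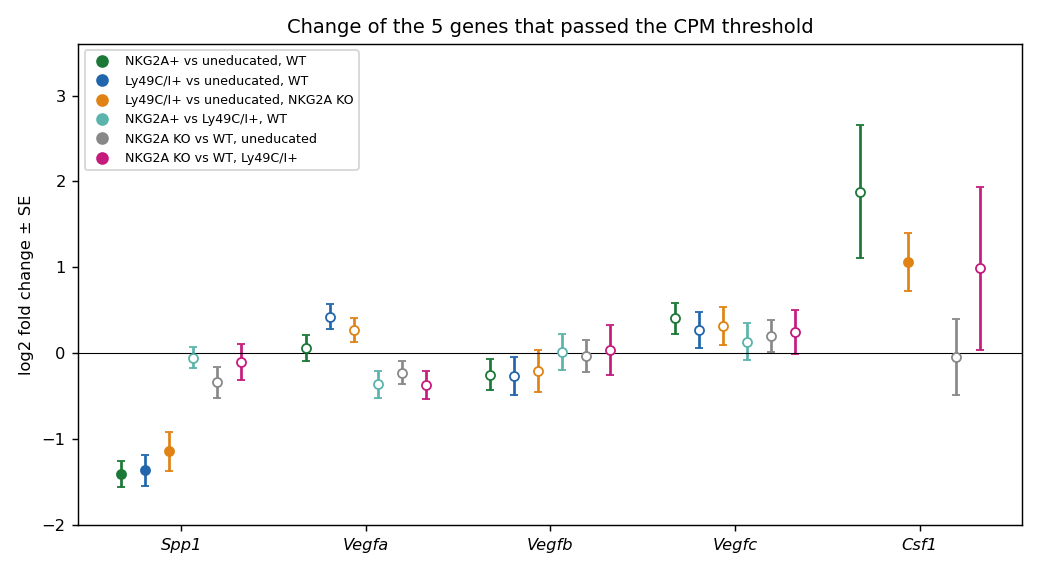
Log2 fold change ± SE (vertical axis) of the 5 genes that passed the CPM threshold, with 1 colour per comparison and filled points for adjusted p under 0.05. Spp1 lies between -1.41 and -1.14 in the 3 education comparisons, Csf1 is filled in KO mice only, and Csf1 has no point where it was below the threshold.

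Vegfa was expressed in every library and passed the test in none of the 7 comparisons (edgeR, 2 at an unadjusted p under 0.05 besides Ly49C/I+ against uneducated WT cells). Uneducated WT libraries 1 to 9 ran from 149 to 301 CPM (median 260, mean 243 ± 50.4, SD, n = 9), and NKG2A+ libraries from 144 to 349 CPM (median 270, mean 253 ± 61.7, n = 9). Library 3 was the lowest in both. The log2 difference was 0.06 (SE 0.15, edgeR adjusted p = 0.830).

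Ly49C/I+ cells of WT mice had the highest group mean of Vegfa. Their 6 libraries ran from 245 to 390 CPM (median 336, mean 323 ± 59.7, SD, n = 6), and 4 of the 6 lay above every uneducated library. The log2 fold change against uneducated cells was 0.42 (SE 0.15, unadjusted p = 0.0101, edgeR adjusted p = 0.0802), so it missed the threshold. It passed in 6 of 25 alternatives, among them the likelihood ratio test (adjusted p = 0.0490), DESeq2 (0.0434), the fit without uneducated library 5 (0.0334) and that without the libraries with few genes detected (0.0479). The adjusted p over the 25 ran from 0.0253, with a block for replicate numbers, to 0.181.

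In KO mice Vegfa was at 209 ± 31.8 CPM in uneducated (SD, n = 8) and 251 ± 57.4 CPM in Ly49C/I+ cells (n = 5), with 236, 272, 164, 262 and 321 CPM in libraries 4 to 8. Of these, 3 lay above all uneducated KO libraries. The log2 fold change was 0.27 (SE 0.14, edgeR adjusted p = 0.194), and it passed without KO Ly49C/I+ library 6 (0.39, adjusted p = 0.0409). The log2 difference of NKG2A+ from Ly49C/I+ cells in WT mice was -0.36 (SE 0.15, unadjusted p = 0.0284, edgeR adjusted p = 0.206), and that of KO from WT Ly49C/I+ cells was -0.37 (SE 0.17, unadjusted p = 0.0402, edgeR adjusted p = 0.447). Neither passed the threshold.

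The Vegfa gene (ENSMUSG00000023951) lies at chr17:46016993-46032369 on the minus strand (GRCm38). Its RefSeq promoter window (GRCm38.p6, chr17:46032328-46032627, minus strand) is shown because Vegfa is the best known HIF target of the set, and neither motif in capitals above is in it on either strand.
Vegfa: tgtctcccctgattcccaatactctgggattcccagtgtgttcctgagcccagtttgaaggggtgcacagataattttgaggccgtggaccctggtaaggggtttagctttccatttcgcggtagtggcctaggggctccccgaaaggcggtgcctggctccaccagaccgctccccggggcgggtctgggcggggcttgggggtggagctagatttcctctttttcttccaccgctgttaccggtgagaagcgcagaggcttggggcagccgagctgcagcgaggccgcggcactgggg
ACGTG is not in this window, which says nothing of sites farther away. The GC box GGGCGG starts at -72 and at -62 (35.7% of windows hold one). The table gives a second Vegfa window within the gene, which has ACGTG on the opposite strand at -211 to -207 from its own start site.

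Over the 37 libraries Vegfa ran most like Arid5a (Spearman rho 0.850), Spsb1 (0.832), Fosl2 (0.759), Litaf (0.756) and Tfip11 (0.754). For Arid5a, which encodes an RNA-binding protein of cytokine transcripts, rho about the group means was 0.849, and for Fosl2, which encodes an AP-1 subunit, it was 0.781 (n = 37). Spp1 and Vegfa had a rho of -0.37, and of -0.10 about the group means.

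Vegfc, the lymphangiogenic ligand (ENSMUSG00000031520, chr8:54077606-54187096), ran from 17.8 to 34.5 CPM in uneducated WT (median 23.2, mean 23.7 ± 6.05, SD, n = 9) and from 17.2 to 41.2 CPM in NKG2A+ libraries (median 32.1, mean 31.3 ± 7.86, n = 9). Of the NKG2A+ libraries, 4 lay above all uneducated libraries and 1 below. The log2 fold change was 0.41 (SE 0.18, unadjusted p = 0.0340, edgeR adjusted p = 0.138). Leaving out both libraries numbered 5 gave 0.51 (adjusted p = 0.0475), the 1 alternative of 30 that passed, and leaving out the 5 libraries with high marker sums gave 0.54 (SE 0.19, adjusted p = 0.0715). In Ly49C/I+ cells Vegfc was at 22.5 to 48.96 CPM (median 24.4, n = 6), with library 7 far above the others (log2 fold change 0.27, SE 0.21, edgeR adjusted p = 0.474), and in KO mice it was at 27.4 ± 7.77 (n = 8) and 34.0 ± 9.52 CPM (SD, n = 5; log2 0.31, SE 0.22, edgeR adjusted p = 0.365).

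Vegfb, a ligand of Flt1 (ENSMUSG00000024962, chr19:6982473-6987651), lay between 7.57 and 17.2 CPM in all libraries. Group means were 12.9 ± 2.22 CPM in uneducated WT (SD, n = 9), 10.8 ± 1.55 in NKG2A+ (n = 9), 10.6 ± 1.66 in Ly49C/I+ (n = 6), 12.7 ± 2.68 in KO uneducated (n = 8) and 11.0 ± 2.76 CPM in KO Ly49C/I+ cells (n = 5). The log2 fold changes with education were -0.25 (SE 0.18, edgeR adjusted p = 0.381), -0.27 (SE 0.22, adjusted p = 0.498) and -0.21 (SE 0.24, adjusted p = 0.604). Each group overlapped with every other. The genes most like Vegfb, Vegfc and Csf1 over the 37 libraries were Igsf3 (Spearman rho 0.640, 0.549 about the group means), Tmem128 (0.650 and 0.561) and Slamf7 (0.606 and 0.594), weaker likenesses than those of Spp1 and Vegfa.

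The VEGF receptors Flt1 and Kdr, which mark endothelium, reached at most 1.53 and 4.89 CPM in any library, and the 7 endothelial markers summed to at most 6.89 CPM. Nrp1, a co-receptor of VEGF ligands, was the 1 of 6 genes of the remaining VEGF ligand and receptor list that was tested, with log2 fold changes of 0.39 (SE 0.34, edgeR adjusted p = 0.497), 0.22 (SE 0.61, adjusted p = 0.870) and 0.13 (SE 0.54, adjusted p = 0.902) in the 3 education comparisons.

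**Figure D4:**
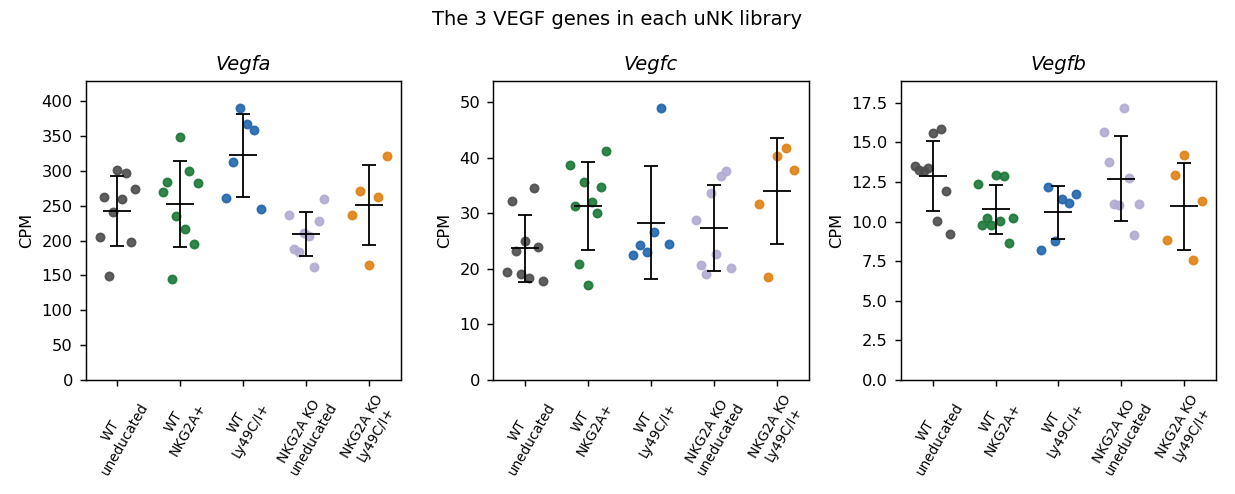
Vegfa, Vegfc and Vegfb in CPM (vertical axes starting at 0) in the libraries of each group, with 1 point per library and the mean ± SD in black. Groups overlap in all 3 genes, and WT Ly49C/I+ cells have the highest mean of Vegfa at 323 CPM.

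Csf1 (ENSMUSG00000014599, chr3:107741048-107760469) rose with Ly49C/I in KO mice, a call that depended on single libraries, and had its widest spread in NKG2A+ cells. KO Ly49C/I+ libraries 4 to 8 had 13.6, 18.3, 7.24, 9.35 and 7.60 CPM (mean 11.2 ± 4.72, SD, n = 5), and the 8 KO uneducated libraries had 2.16 to 8.62 CPM (median 5.48, mean 5.39 ± 2.03). The first 3 of these in order of level, libraries 5, 4 and 7, lay above all uneducated KO libraries. The log2 fold change was 1.06 (SE 0.34, edgeR adjusted p = 0.0410). The call held in 8 of 23 alternatives, with adjusted p up to 0.446. It was lost without KO Ly49C/I+ library 4 (0.99, adjusted p = 0.101), 5 (0.81, adjusted p = 0.126) or 7 (1.12, adjusted p = 0.0615), without KO uneducated library 2, 3, 4, 5 or 6 (adjusted p = 0.0591 to 0.0662), with a filter of 1 CPM (adjusted p = 0.0566) or none (0.105), and with all groups in 1 fit (0.446).

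In WT mice, Csf1 was at 0.574 to 14.8 CPM in uneducated libraries (median 4.86, mean 5.53 ± 4.28, SD, n = 9). NKG2A+ libraries 1 to 9 had 34.7, 12.3, 44.5, 9.43, 69.8, 3.27, 7.10, 0.811 and 0 CPM (mean 20.2 ± 24.2, n = 9). Libraries 1, 3 and 5 lay above every uneducated library. The log2 fold change was 1.88 (SE 0.77, unadjusted p = 0.0232, edgeR adjusted p = 0.107). It passed without NKG2A+ library 9 (2.04, adjusted p = 0.0401) and without the libraries with few genes detected (2.04, adjusted p = 0.0397), 2 of 29 alternatives. Without library 5 it was 1.36. With a block for replicate numbers and GC content and length offsets it was 0.92, the lowest of the alternatives. Libraries 1, 3 and 5 were also those with the highest trophoblast marker sums of the NKG2A+ group, 31.2, 35.0 and 37.5 CPM, and libraries 1 and 3 had stromal sums of 493 and 286 CPM. Library 4, with the highest stromal sum of all (891 CPM), had 9.43 CPM of Csf1, and WT uneducated library 5, with the highest trophoblast sum (59.8 CPM), had 5.49 CPM. The high trophoblast sums were mostly Krt8 and Krt18, and the high stromal sums mostly Prl8a2. The part of these markers in the Csf1 level was not tested. Without the 5 libraries with high marker sums, Csf1 no longer reached 5 CPM in enough libraries to be tested. WT Ly49C/I+ cells had 2.40, 0.0583, 0.0589, 21.8, 4.81 and 4.34 CPM in libraries 1, 2, 4, 5, 7 and 8, below the threshold for a test. Without a filter, the log2 fold change against uneducated cells was 0.01 (SE 0.87, adjusted p = 0.998).

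Csf1r, the receptor of CSF1, was at 0 to 19.7 CPM and at 0 in 12 of the 37 libraries. Of 6 genes of the related growth factor list 2 were tested in each education comparison, and Flt3l, a ligand that sustains dendritic cell precursors, was higher in Ly49C/I+ than in uneducated WT cells (52.8 ± 21.9 against 23.8 ± 6.68 CPM, SD, n = 6 and 9; log2 fold change 1.17, SE 0.23, edgeR adjusted p = 0.00488).

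Midkine RNA (Mdk, ENSMUSG00000027239, chr2:91929805-91932297) was found in 36 of 37 libraries, at levels set by a few. In WT Ly49C/I+ cells, library 2 had 106 CPM (1814 reads), and libraries 1, 4, 5, 7 and 8 had 1.11, 0.707, 2.81, 0.704 and 0.779 CPM. In NKG2A+ cells libraries 1 to 9 had 21.5, 16.2, 35.8, 12.3, 7.63, 2.00, 0.838, 1.77 and 2.72 CPM. Libraries 1 to 5 were above libraries 6 to 9. In uneducated WT cells library 3 had 22.9 CPM and the others 1.20 to 6.59 CPM, and KO libraries had 0 to 7.86 CPM. The medians were 3.25 in uneducated, 7.63 in NKG2A+ and 0.942 CPM in Ly49C/I+ WT cells, and 1.71 and 1.63 CPM in the KO groups. In fits without a filter, 0 of the 7 comparisons passed for Mdk (unadjusted p = 0.0359 for KO against WT Ly49C/I+ cells, adjusted p = 0.407).

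Pleiotrophin (Ptn, ENSMUSG00000029838, chr6:36714929-36810220), the family partner of midkine, was high in the same library. WT Ly49C/I+ library 2 had 37.3 CPM of Ptn (639 reads), and the other 5 libraries of that group had at most 2 reads each. NKG2A+ libraries 1 to 5 had 3.33, 1.56, 2.76, 5.13 and 3.48 CPM and libraries 6 to 9 had 0. Uneducated WT libraries 1 to 4 had 3.18, 1.53, 4.71 and 0.673 CPM and libraries 5 to 9 at most 0.115 CPM. KO libraries had at most 0.647 CPM. Over the 37 libraries Mdk and Ptn had a Spearman rho of 0.628, and of 0.816 about the group means, as a description. In Ly49C/I+ library 2 the stromal markers summed to 52.1 CPM and the trophoblast markers to 0.816 CPM, both inside the range of the other libraries. That library had the most genes with a count of all 37 (17859). In NKG2A+ libraries 1 to 5 the stromal sums ran from 8.24 to 891 CPM, and in 6 to 9 from 2.65 to 8.21 CPM. The part of these markers in the levels of Mdk and Ptn was not tested.

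Of 8 receptor genes listed for the 2 factors, Ncl, which encodes the abundant nucleolar protein nucleolin, was lower in WT and KO Ly49C/I+ cells (log2 -0.34, SE 0.083, edgeR adjusted p = 0.0164, and -0.42, SE 0.084, adjusted p = 0.00354). Sdc4, a heparan sulphate proteoglycan, was higher in KO Ly49C/I+ cells (log2 1.39, SE 0.41, adjusted p = 0.0299). Ptprz1, the receptor phosphatase for pleiotrophin, was at most 1.18 CPM, and Alk at most 0.236 CPM.

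**Figure D5:**
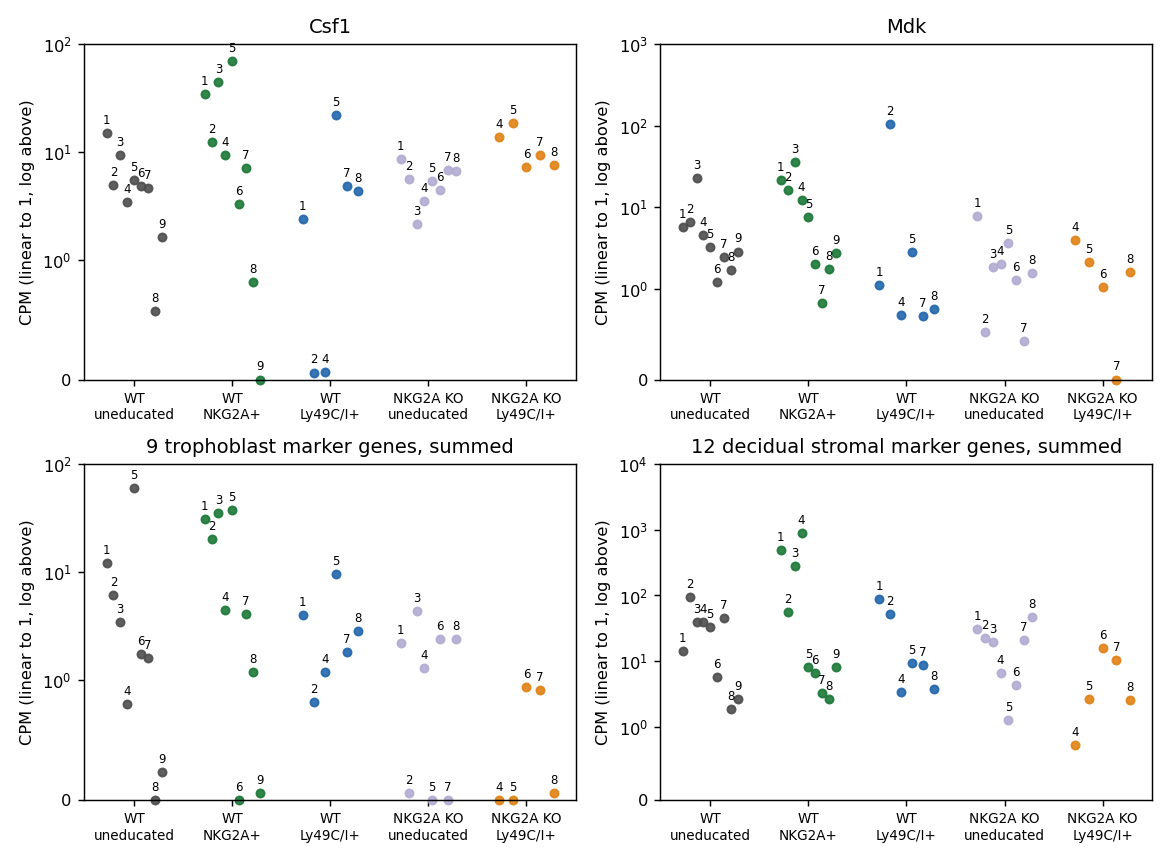
Csf1, Mdk and the summed trophoblast and decidual stromal markers in each library, in CPM on vertical axes that are linear to 1 and logarithmic above, with points labelled by library number. NKG2A+ libraries 1, 3 and 5 are the highest of their group for Csf1 and for the trophoblast sum, and Ly49C/I+ library 2 is the highest of all for Mdk at 106 CPM. High trophoblast sums are mostly Krt8 and Krt18, and high stromal sums mostly Prl8a2.

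Placental growth factor (Pgf, ENSMUSG00000004791, chr12:85166635-85177790) was near the limit of detection. Pgf had 0 reads in 25 of 37 libraries, and its highest level was 5.87 CPM (92 reads) in WT uneducated library 5. The next were NKG2A+ libraries 5 (3.14 CPM, 56 reads) and 3 (2.42 CPM, 43 reads) and KO uneducated library 7 (2.23 CPM). WT uneducated library 5 and NKG2A+ libraries 3 and 5 also had the 3 highest trophoblast marker sums of all, 59.8, 35.0 and 37.5 CPM. These sums were mostly Krt8 and Krt18, and the part of these markers in the Pgf reads was not tested. All 5 KO Ly49C/I+ libraries had 0 reads, which allows up to 0.0334 CPM over that group. Without a filter, 0 of 7 comparisons passed for Pgf, and 2 had an unadjusted p under 0.05. The share of all genes at that level was not counted without a filter, so these 2 are not read as changes.

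Adrenomedullin (Adm, ENSMUSG00000030790, chr7:110627661-110629820) was likewise near the limit of detection, with 0 reads in 24 libraries and at most 2.61 CPM. Uneducated WT libraries 1 to 4 had 2.30, 2.61, 1.86 and 1.35 CPM, 5 to 7 had 0, and 8 and 9 had 9 reads each. Of the 9 NKG2A+ libraries 2 had reads (0.785 and 0.970 CPM), and the 6 Ly49C/I+ libraries held 1 read in all. Against uneducated WT cells the fit without a filter gave unadjusted p = 0.00164 and adjusted p = 0.0694 for Ly49C/I+ cells, and adjusted p = 0.317 for NKG2A+ cells. Among the receptor genes, Ramp1 was higher in NKG2A+ cells (28.9 ± 6.99 against 12.8 ± 4.55 CPM, SD, n = 9 and 9; log2 fold change 1.19, SE 0.24, edgeR adjusted p = 0.00170), while Calcrl, its partner receptor, was at 8.98 ± 7.74 against 3.66 ± 2.32 CPM (log2 1.31, SE 0.58, adjusted p = 0.142).

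The loss of NKG2A was compared with WT within each gate. Both KO gates also take in cells that would carry NKG2A in WT mice, so genotype and cell content of the gates cannot be told apart. Of the 5 members tested 0 passed between KO and WT uneducated cells, 0 between KO and WT Ly49C/I+ cells, and 0 for the interaction of Ly49C/I with genotype, where 0% of 9288, 9344 and 9322 genes passed. At an unadjusted p under 0.05 there were 0, 1 (Vegfa) and 0 members, beside 6.66%, 10.6% and 4.37% of all genes, and the likelihood ratio test and DESeq2 called 0 members. In uneducated cells the log2 differences, KO minus WT, were -0.34 for Spp1, -0.23 for Vegfa (SE 0.13), -0.03 for Vegfb (SE 0.19), 0.20 for Vegfc (SE 0.19) and -0.05 for Csf1 (SE 0.44). Csf1 in Ly49C/I+ cells differed by 0.99 (SE 0.95, edgeR adjusted p = 0.762), and by 2.26 without WT Ly49C/I+ library 5 (adjusted p = 0.360), the highest of the range of 0.73 to 2.26 with 1 library left out.

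Other growth and angiogenic factors were mostly below the threshold. Of 32 listed genes 9 were tested in NKG2A+, 6 in Ly49C/I+ and 7 in KO Ly49C/I+ cells against uneducated cells, with 1, 0 and 2 lower and 0 higher in each, beside 15.0%, 9.20% and 16.3% of all genes tested that passed. These counts are too small to set the list apart from all genes. Pdgfa, a platelet-derived growth factor chain, was at 25.0 ± 11.1 CPM in NKG2A+ against 58.1 ± 16.6 CPM in uneducated cells (SD, n = 9 and 9; log2 -1.21, SE 0.26, edgeR adjusted p = 0.00262), and it fell by 0.82 in KO Ly49C/I+ cells (SE 0.22, adjusted p = 0.0199). In WT Ly49C/I+ cells its log2 difference was -0.25 (SE 0.21, adjusted p = 0.513). Angptl4, a hypoxia-induced vascular factor, was lower in KO Ly49C/I+ cells at 6.90 ± 3.37 against 14.4 ± 1.98 CPM (n = 5 and 8; log2 -1.06, SE 0.30, adjusted p = 0.0246). Tgfb1 was lower in NKG2A+ than in Ly49C/I+ cells (log2 -0.59, SE 0.13, adjusted p = 0.0168). Of 16 genes of the matrix protease list 4 were tested, with 2 higher and 1 lower in NKG2A+ cells. In WT Ly49C/I+ cells 0 were higher and 1 lower, and in KO Ly49C/I+ cells 1 was higher and 1 lower. The lower gene was Adam8 each time, with the values given above. Timp2, a metalloprotease inhibitor, rose in NKG2A+ (log2 1.27, SE 0.26, adjusted p = 0.00205) and KO Ly49C/I+ cells (0.95, SE 0.23, adjusted p = 0.0104). Plaur, the urokinase receptor, rose in NKG2A+ cells (1.19, SE 0.37, adjusted p = 0.0325). Of 7 listed regulators linked to uNK growth factors 5 were tested, and Ahr, the aryl hydrocarbon receptor, and Zeb2, a transcription factor of NK cell maturation, rose in NKG2A+ cells (log2 1.66, SE 0.33, adjusted p = 0.00138, and 1.33, SE 0.33, adjusted p = 0.00783), with 0 of 5 past the threshold in both Ly49C/I+ comparisons.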

How the data were processed

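The 9 genes and all gene lists were chosen with earlier results of these data known. Per the labels, total RNA was amplified as full-length cDNA (SMART-Seq v4, Nextera XT), and the authors trimmed reads with Trim Galore 0.5.0, mapped them with STAR 2.7.1 to GRCm38 and deposited raw counts per gene. For the program that counted them, and for strand, the sources used here give nothing. Lines that name no gene (2.69% to 6.83% of reads without a gene, 4.04% to 4.60% ambiguous and 11.3% to 13.8% without a unique position) were left out.

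The deposited counts entered edgeR 4.0.16 (R 4.3.3) with TMM factors, and each comparison was fitted on its own groups by quasi-likelihood with Benjamini-Hochberg adjustment. The scripts were tested on simulated data. DESeq2 1.42.0, the likelihood ratio test, RLE factors, other filters, GC content and length offsets, a block for replicate numbers, a fit of all groups and leaving out libraries were alternatives. Names came from GENCODE M21, which gave 52147 of 53700 identifiers a symbol. Named besides the members were at most the 4 called genes of each list with the smallest adjusted p, receptor genes, and the 5 genes most like a member in log2(CPM + 1). Reads lack molecular identifiers, so the limit that 0 reads allow (3 reads over the group) covers counting error only. WT Ly49C/I+ libraries are numbered by their description, and WT uneducated library 5 by its title. An item among the genes most like a member is not reported here.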

Additional observations from a re-analysis of the deposited data

Results flagged for a closer look

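Each of the 9 genes was screened in each of the 5 groups for a library whose gap to its nearest neighbour is large for the range of the group (Dixon's criterion). Of 44 groups with any reads 14 held such a library, where chance gives about 1 in 20 for values of normal spread. The cause of none was tested.

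For Spp1 these were WT Ly49C/I+ library 4 (3799 CPM, the highest of 6) and NKG2A KO Ly49C/I+ library 4 (1131 CPM, the lowest of 5). Vegfc stood apart in WT Ly49C/I+ library 7 (48.96 CPM) and Csf1 in WT Ly49C/I+ library 5 (21.8 CPM). WT Ly49C/I+ library 2 stood apart in both Mdk (106 CPM) and Ptn (37.3 CPM), and for Mdk so did WT uneducated library 3 (22.9 CPM) and KO uneducated library 1 (7.86 CPM). Pgf stood apart in WT uneducated library 5 (5.87 CPM).

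The others were groups with most libraries at or near 0. They were Ptn in KO uneducated library 7 (0.181 CPM) and KO Ly49C/I+ library 6 (0.647 CPM), and Adm in WT Ly49C/I+ library 7 (0.0587 CPM), KO uneducated library 5 (2.12 CPM) and KO Ly49C/I+ library 6 (1.06 CPM).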

How the results depend on the processing

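Of 341 member values under alternatives that changed the test, scaling, filter or model or dropped libraries by a rule, 320 kept their direction and side of the threshold. Of 555 with a single library left out 517 did. Spp1 kept both in every alternative of the education comparisons. Csf1 in KO mice lost its call in 15 of 23, the replicate block (adjusted p = 0.146) and the GC content and length offsets (0.0522) among them. Causes of these changes were not tested.

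The count of genes past the threshold for Ly49C/I+ against uneducated WT cells, 855, was 451 without a CPM filter and 1528 with all groups in 1 fit. For NKG2A+ against Ly49C/I+ cells, 254 became 442 with the likelihood ratio test, 558 with DESeq2, 104 without a filter (59.6% higher, against 48.0%), 118 with the offsets, 130 with the replicate block and the offsets (36.9% higher), 109 without the libraries with few genes detected and 39 without those with high trophoblast or stromal sums, an alternative chosen after seeing the data. For KO Ly49C/I+ against uneducated cells, 1519 became 889 without a filter, 759 with the replicate block and 587 with block and offsets. KO against WT uneducated cells and the difference between genotypes went from 0 to 1 with the likelihood ratio test and with DESeq2, and KO against WT Ly49C/I+ cells from 0 to 60 and 118 with those 2 methods and to 18 with all groups in 1 fit.

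With 1 library left out, the counts ran from 1118 to 1687 and from 466 (without Ly49C/I+ library 7) to 1227 for the 2 WT education comparisons, from 147 (without Ly49C/I+ library 7) to 306 between the educated groups, from 967 (without Ly49C/I+ library 4) to 1763 in KO mice, and from 0 to 15 between genotypes in Ly49C/I+ cells. Without WT Ly49C/I+ library 5 or uneducated library 3, 564 and 539 genes passed for WT Ly49C/I+ cells, and without NKG2A+ 2 or 8, or Ly49C/I+ 2 or 5, 168, 163, 154 and 155 between the educated groups.

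Sign changed only in values that missed the threshold. NKG2A+ against Ly49C/I+ gave 0.022 for Spp1 with the replicate block, -0.055 for Vegfb without the libraries with high marker sums, and -0.0021 for Vegfc with block and offsets. KO against WT uneducated cells gave 0.013 for Vegfb without the libraries with few genes and 0.045 for Csf1 with the block, and KO against WT Ly49C/I+ cells gave -0.11 and -0.060 for Vegfb with the block and with block and offsets. With 1 library left out, values ran from -0.0063 to 0.14 (Vegfa, NKG2A+ against uneducated), -0.10 to 0.061 (Spp1) and -0.051 to 0.062 (Vegfb, both between the educated groups), -0.10 to 0.025 (Vegfb) and -0.20 to 0.29 (Csf1, both KO against WT uneducated), -0.20 to 0.082 (Spp1) and -0.072 to 0.15 (Vegfb, both KO against WT Ly49C/I+), and -0.030 to 0.17 (Vegfb) and -0.043 to 0.28 (Vegfc, both the difference between genotypes).

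Replicate numbers were checked for pairing. Same-numbered libraries of NKG2A+ and uneducated cells correlated at -0.038 to 0.226 in their deviations from the group means (3 of 9 over 0.1, 6 of 9 best with their own number). For Ly49C/I+ and uneducated WT cells, r was 0.0778 to 0.186 (4 of 6 over 0.1, 6 of 6 best with their own number), and for NKG2A+ and Ly49C/I+ cells 5 of 6 were best with their own number, a hint of pairing in the WT data. In the other comparisons 0 to 2 pairs passed 0.1. As no comparison had every pair over 0.1, the numbers were not taken to pair libraries. The block gave 1418 and 987 genes for the WT education comparisons and brought Vegfa in Ly49C/I+ cells to adjusted p = 0.0253, and it gave 0.96 for Csf1 in NKG2A+ cells (0.92 with the offsets). Mdk, Ptn, Pgf and Adm stood below the CPM threshold in each comparison and could not be tested firmly at these levels.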
